A study of Mus musculus with 6 samples.

Results

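Activity-induced immediate early genes were described in brain RNA of rat pups at postnatal day 21, through 5 genes fixed by their Ensembl rat identifiers: Fos (ENSRNOG00000008015), Egr1 (ENSRNOG00000019422), Arc (ENSRNOG00000043465), Nr4a1 (ENSRNOG00000007607) and Junb (ENSRNOG00000042838). All 5 were found among the 32623 genes of the count table, and all 5 passed the filter on low counts that left 16776 genes for testing. The study compared the brains of 3 offspring whose dams had eaten a high-fat diet from before mating until weaning (MHFD) with those of 3 offspring whose dams had eaten a normal diet (MND), 1 library per animal. No agent or allele was given to either group. The methods name Sprague-Dawley rats, the sample labels name C57BL/6 mice, and all identifiers in the table are of the rat. Litter, sex and brain region of the 6 animals and the handling and hour before collection were not given in the sources used here. The p-values of edgeR's test set the group difference against the spread between libraries of the same group among these 6. That spread is estimated for each gene with information borrowed from all tested genes. If animals of a group shared a litter, litter and diet cannot be told apart. Libraries held 43679373 to 61385917 counts. With no table that pairs the identifiers with symbols, brain and other cell type markers were not checked.

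Immediate early genes are transcribed within minutes of a stimulus, without new protein synthesis: calcium entry and MAP kinase signalling in active neurons act on factors such as CREB and SRF that are already bound at their promoters. Fos and Junb encode partners in the AP-1 transcription factor, Egr1 a zinc finger transcription factor, and Nr4a1 an orphan nuclear receptor. Arc encodes a cytoskeletal protein of dendrites that removes AMPA receptors from synapses. Their transcripts are short-lived.

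Promoter sequence is shown for a class of induction site of immediate early genes, the cAMP response element bound by CREB. RefSeq entries of the mouse (build GRCm38.p6) matched 3 of the 5 genes by symbol. They are mouse orthologues of the rat genes measured, and no rat sequence was used here. The 250 bases before the annotated start were searched on both strands for TGACG, the core of that element and not its full sequence. On the other strand it is read as CGTCA. Matches are in capitals. The windows are chr12:85473640-85473889 on the plus strand for Fos, chr15:101266596-101266845 on the plus strand for Nr4a1 and chr8:84978749-84978998 on the minus strand for Junb, each written 5′ to 3′ along the gene.
Fos: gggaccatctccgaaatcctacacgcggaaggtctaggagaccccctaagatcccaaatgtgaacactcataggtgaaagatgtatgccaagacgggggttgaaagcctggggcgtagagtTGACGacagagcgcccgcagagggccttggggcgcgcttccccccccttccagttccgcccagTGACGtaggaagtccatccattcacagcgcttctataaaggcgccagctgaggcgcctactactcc
Nr4a1: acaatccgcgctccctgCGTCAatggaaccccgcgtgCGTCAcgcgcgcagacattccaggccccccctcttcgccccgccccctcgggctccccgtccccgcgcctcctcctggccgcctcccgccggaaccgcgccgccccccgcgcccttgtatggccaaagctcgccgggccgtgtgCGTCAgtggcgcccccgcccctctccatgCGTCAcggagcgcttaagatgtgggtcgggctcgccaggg
Junb: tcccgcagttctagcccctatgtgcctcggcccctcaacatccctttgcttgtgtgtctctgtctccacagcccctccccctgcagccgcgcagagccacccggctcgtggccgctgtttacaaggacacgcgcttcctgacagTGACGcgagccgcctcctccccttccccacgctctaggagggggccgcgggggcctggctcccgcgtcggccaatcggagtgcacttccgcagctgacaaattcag
The Fos window held 2 matches, the nearer beginning 66 bases before the start. Nr4a1 held 4, beginning 233, 213, 69 and 40 bases before it, and Junb held 1, at 106 bases. Of the 32851 mouse promoters in the same table, 17.8% held at least 1 match. The windows of Fos, Nr4a1 and Junb held 58.4%, 74.4% and 66.4% G and C, against a median of 52.4% over those promoters. TGACG holds a CG itself, and promoters of like G and C content were not compared. A match describes letters in this window, not a bound site.

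None of the 5 genes differed between the MHFD and MND brains at an adjusted p under 0.05 in edgeR's quasi-likelihood test, where 0.00596% of all tested genes did. At an unadjusted p under 0.05, 1 of the 5 passed, Fos, beside 8.68% of all tested genes; DESeq2, the likelihood-ratio test and limma-voom each gave the same counts of 0 and 1. The groups overlapped for each of the 5 genes, whereas 13.9% of tested genes had no overlap. The median log2 fold change of the 5 genes was -0.04, against 0.00235 over all tested genes. In bulk tissue, fewer cells of a type and less RNA per cell cannot be told apart.

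**Figure D1:**
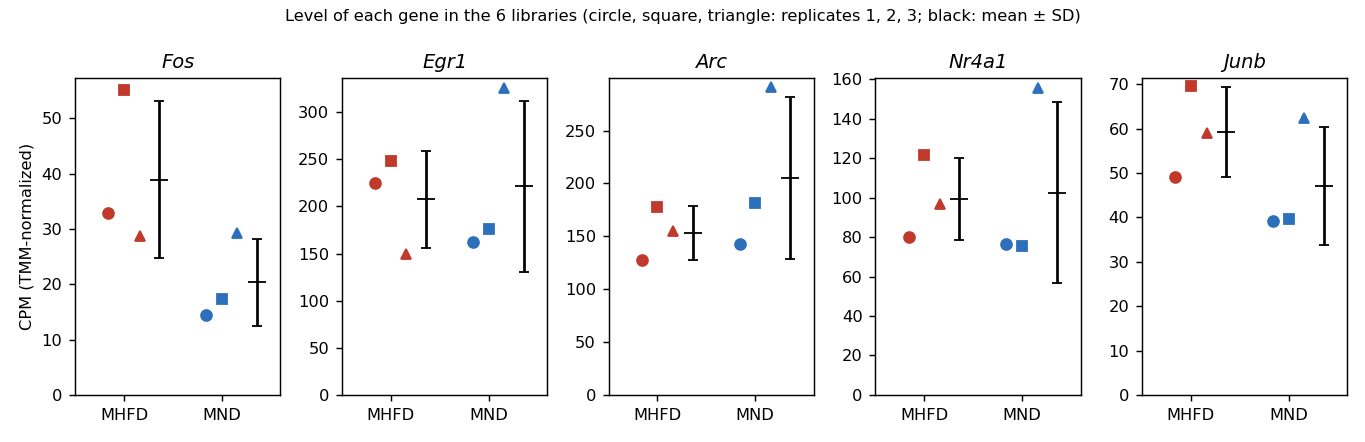
CPM (counts scaled to library size after TMM normalization) of each gene by group, with 1 point per library and the mean ± SD (n = 3) beside it; each panel has its own axis from 0. MND replicate 3 (blue triangle) was the highest MND library and MHFD replicate 2 (red square) the highest MHFD library for all 5 genes.

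Fos, the AP-1 partner most used as a marker of recent neuronal activity, had 32.9, 55.1 and 28.8 CPM in the MHFD libraries, given here and below in the order of replicates 1, 2 and 3, and 14.4, 17.3 and 29.2 CPM in the MND libraries. CPM are counts per library size, after TMM normalization. MND replicate 3 lay just above MHFD replicate 3, and the other MND libraries lay below every MHFD library. The mean CPM (± SD, n = 3 each) was 38.9 ± 14.1 for MHFD and 20.3 ± 7.86 for MND. The log2 fold change was 0.94 (standard error 0.34, 95% interval 0.14 to 1.74), with an adjusted p of 0.546 from edgeR's test. Fos ranked 855th of the 16776 genes by p, and its exact permutation p, two-sided, was 0.2, where 3 animals against 3 allow no less than 0.1. The log2 fold change was 0.60 without MHFD replicate 2, with no p under 0.05 then, and 1.29 without MND replicate 3.

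Junb, which pairs with Fos in AP-1, had 49.1, 69.6 and 59.0 CPM in the MHFD libraries and 39.1, 39.6 and 62.4 CPM in the MND libraries. Again 2 of the MND libraries lay below all MHFD libraries and MND replicate 3 lay within them. The means were 59.2 ± 10.2 and 47.0 ± 13.3 CPM (SD, n = 3 each), and the log2 fold change was 0.33 (standard error 0.22, 95% interval -0.18 to 0.85, adjusted p = 0.689 from edgeR's test). It was 0.20 without MHFD replicate 2 and 0.59 without MND replicate 3.

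Egr1, a regulator of synaptic plasticity genes, had 225, 248 and 149.9 CPM in the MHFD libraries and 162, 176 and 326 CPM in the MND libraries. Its highest and lowest libraries were MND replicate 3 and MHFD replicate 3. The log2 fold change was -0.09 (standard error 0.31, 95% interval -0.82 to 0.64, adjusted p = 0.954 from edgeR's test). Nr4a1 had 80.0, 121 and 97.0 CPM in the MHFD libraries and 76.3, 75.7 and 156 CPM in the MND libraries. The MHFD values of Nr4a1 lay inside the MND range, and its log2 fold change was -0.04 (standard error 0.31, 95% interval -0.78 to 0.69, adjusted p = 0.978 from edgeR's test). These intervals hold changes of over 1.5-fold in both directions. Without MND replicate 3 the log2 fold changes turned to 0.30 for Egr1 and 0.39 for Nr4a1, and Egr1 was at 0.10 without MHFD replicate 3.

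Arc, the synaptic member of the 5, had 127, 177 and 155 CPM in the MHFD libraries and 143, 181 and 291 CPM in the MND libraries. MND replicate 3 stood above the other 5 libraries, which overlapped. The mean CPM (± SD, n = 3 each) was 153 ± 25.2 for MHFD and 205 ± 76.9 for MND. The log2 fold change was -0.42 (standard error 0.27, 95% interval -1.06 to 0.21, adjusted p = 0.683 from edgeR's test), and it was -0.08 without MND replicate 3.

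**Figure D2:**
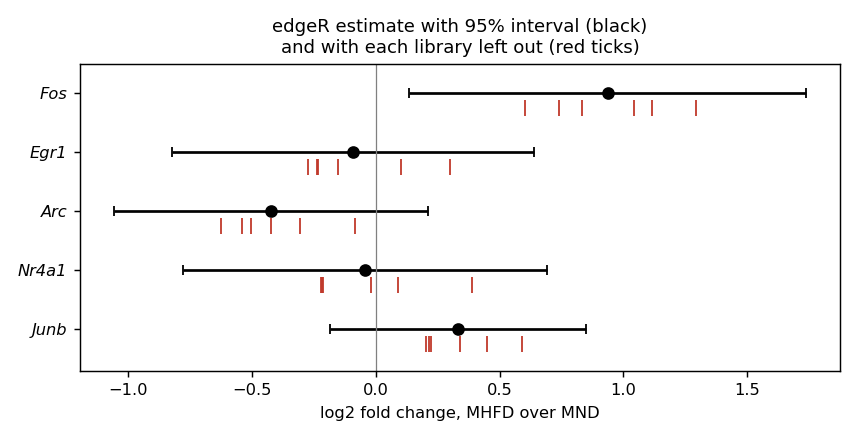
Log2 fold change of MHFD over MND for each gene from edgeR's quasi-likelihood fit with its 95% interval (black), and the estimate with each library left out in turn (red ticks). Fos and Junb stayed above 0 and Arc below 0 in each of the 6 fits, while Egr1 and Nr4a1 fell on both sides.

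The animals of a group differed more in these genes than in most genes of like level. The tagwise dispersion, edgeR's estimate of the squared relative spread between animals, was 0.0894 for Fos, 0.0755 for Egr1, 0.0587 for Arc, 0.0755 for Nr4a1 and 0.0413 for Junb. Among genes with a mean within 1.5-fold, the median dispersion lay between 0.0165 and 0.0211. For Fos, 95.7% of the 3060 genes of like level had a lower dispersion, and for Egr1 96.8% of 878. For Arc, Nr4a1 and Junb the share was 93.7%, 95.9% and 89.2%. Over the 6 libraries the highest CPM was 3.82 times the lowest for Fos, 2.29 times for Arc, 2.18 times for Egr1, 2.05 times for Nr4a1 and 1.78 times for Junb. Within the MND group the highest value was 2.01 to 2.05 times the lowest for Fos, Egr1, Arc and Nr4a1 and 1.596 times for Junb. Within the MHFD group it was 1.39 times for Arc, 1.42 times for Junb, 1.52 times for Nr4a1, 1.66 times for Egr1 and 1.91 times for Fos. The MND span came with MND replicate 3, which stood at 1.59 to 2.05 times the mean of the other two MND libraries for the 5 genes.

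The highest library within each group was shared by the 5 genes. MHFD replicate 2 was the highest of its group and MND replicate 3 the highest of its group for 5 of the 5 genes, and the same held for 11.1% of all tested genes. These libraries were named after the values of the 5 genes had been seen, so the count is a description. The lowest library over both groups differed between genes: MND replicate 1 for Fos and Junb, MND replicate 2 for Nr4a1, MHFD replicate 1 for Arc and MHFD replicate 3 for Egr1. MND replicate 3 stood on average 0.50 above the genes' own means on the log2 scale, with single genes from 0.12 to 0.75. MHFD replicate 2 stood 0.42 above, from 0.04 for Arc to 1.03 for Fos. MND replicate 1 was below the mean for each gene, at -0.45 on average. Over all tested genes, MND replicate 3 was the highest library for 19.0% and MHFD replicate 2 for 18.1%, and the other 4 libraries for 13.2 to 20.5%. Chi-square per gene measures how far 2 libraries differ over genes. For MND replicate 3 it was 100 and 119 against MND replicates 1 and 2, which were at 31.1 from each other. MND replicate 3 thus differed from its group beyond these 5 genes. Among the MHFD libraries replicate 1 stood apart, at 101 and 143 from replicates 2 and 3, which were at 45.3 from each other.

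**Figure D3:**
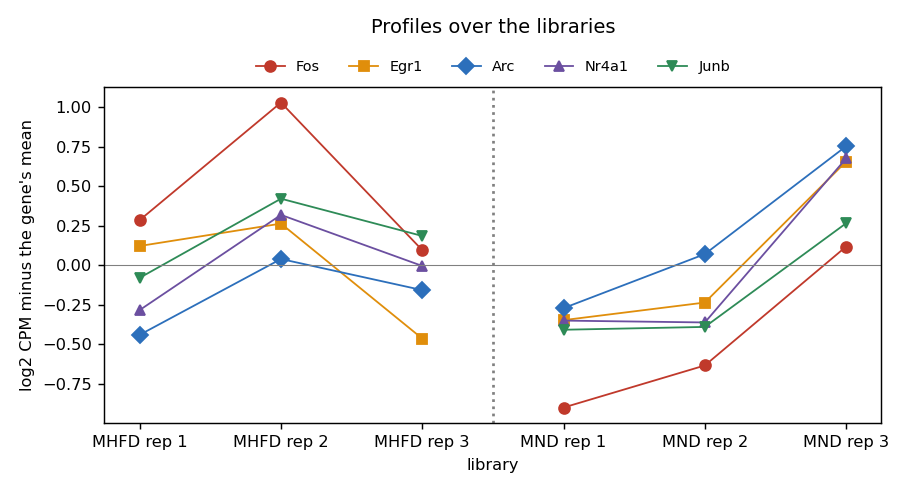
Log2 CPM of each gene in each library after subtracting the gene's mean over the 6 libraries; lines join the libraries of a group only to guide the eye, as replicates have no order. Each gene is highest within its group in MHFD replicate 2 and MND replicate 3, and Fos lies above Arc in each MHFD library and below it in each MND library.

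Over the 6 libraries the correlation of log2 CPM was above 0 for all 10 pairs of the 5 genes, with a median Pearson r of 0.64. The share of all tested genes with a lower r to the first gene of a pair ran from 58.1% for Fos and Arc to 99.1% for Fos and Junb. It was 82.4% for Arc and Junb and 83.5% for Fos and Egr1. No pair passed an adjusted p of 0.05 in the exact permutation test, two-sided, over the 720 orders of the libraries, and 3 pairs had an unadjusted p under 0.05. Fos and Junb had the highest r, 0.89 (exact permutation p = 0.0125, adjusted p = 0.125 over the 10 pairs; Spearman's rho 0.83, p = 0.0583, adjusted p = 0.292), and r was 0.75 without the 2 libraries farthest from the median of Fos. Nr4a1 and Junb had an r of 0.84 (exact permutation p = 0.0389, adjusted p = 0.134; rho 0.89, p = 0.0333, adjusted p = 0.292), and r was 0.94 without 2 libraries chosen in the same way. Arc and Nr4a1 had an r of 0.82 (exact permutation p = 0.0403, adjusted p = 0.134; rho 0.37, p = 0.497, adjusted p = 0.552), which rested on such libraries, as r was 0.32 without MHFD replicate 1 and MND replicate 3. Fos and Arc had the lowest r, 0.13 (exact permutation p = 0.818, adjusted p = 0.818; rho 0.03, p = 1).

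After subtracting each group's mean, the 10 correlations lay between 0.73 and 0.99 with a median of 0.87, given as a description over 6 libraries that share 4 degrees of freedom. Fos and Arc then had an r of 0.86, and Nr4a1 and Junb one of 0.99. For a pair, a median of 98.0% of all tested genes had a lower correlation of this kind to its first gene. Without MND replicate 3 the median was 0.73. The pairs of Egr1 with Arc, Nr4a1 and Junb were then at 0.15, 0.22 and 0.15, and Nr4a1 and Junb were at 0.996.

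**Figure D4:**
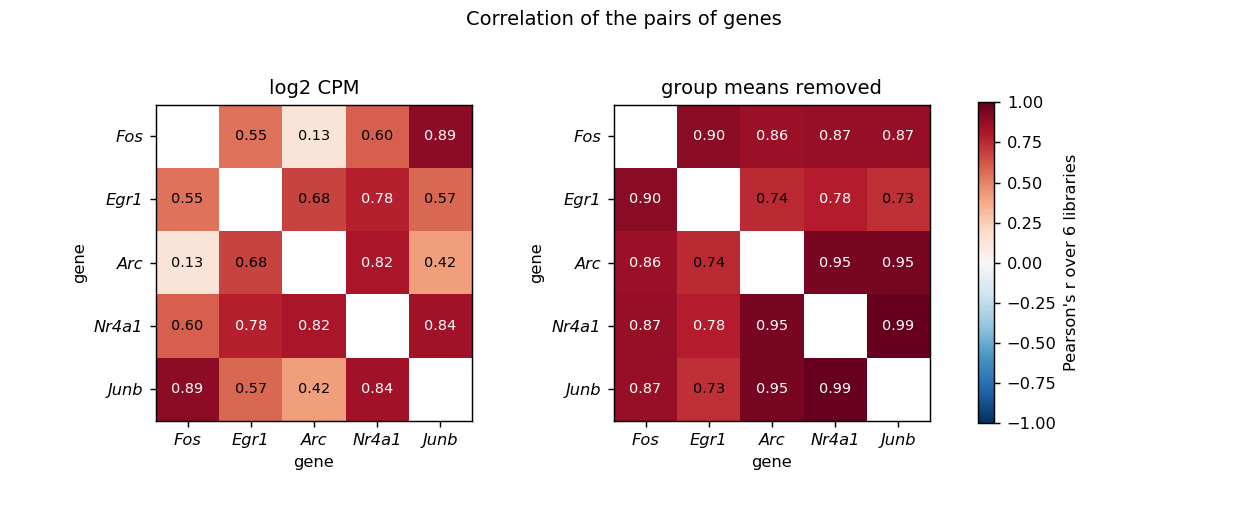
Pearson's r of each pair of genes over the 6 libraries, from log2 CPM (left) and after removing the group means (right); the colour scale runs from -1 to 1. The pair Fos and Arc goes from 0.13 on the left to 0.86 on the right.

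The balance between the genes within a library was compared next, a comparison chosen after their values had been seen. The ratio of 2 raw counts in the same library does not depend on sequencing depth or normalization. It includes the lengths of both transcripts, so it was compared between libraries and not read as a difference in level between genes. Fos counts were 0.258, 0.310 and 0.186 of the Arc counts in the MHFD libraries and 0.101, 0.0956 and 0.1005 in the MND libraries in the same order. The MND libraries lay within a narrow band although their Fos level differed 2.03-fold, and each MHFD library lay above it. The geometric mean was 2.49 times higher in the MHFD group, a log2 difference of 1.31 that stayed between 1.15 and 1.52 when single libraries were left out.

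Junb counts were 0.386, 0.392 and 0.381 of the Arc counts in the MHFD libraries and 0.273, 0.218 and 0.214 in the MND libraries. Here the MHFD libraries formed the narrow band, and the MND libraries lay below it, with a log2 difference of 0.72 (0.66 to 0.84 with each library left out). Nr4a1 counts were 0.629, 0.684 and 0.627 of the Arc counts in the MHFD libraries and 0.534, 0.418 and 0.534 in the MND libraries, also without overlap. Egr1 counts relative to Arc were 1.77, 1.40 and 0.968 in the MHFD libraries and 1.136, 0.968 and 1.12 in the MND libraries, with overlap. Thus 3 of the 4 ratios to Arc were higher in every MHFD library than in any MND library, as were 11.9% of all tested genes taken relative to Arc.

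Fos relative to Egr1 was 0.146, 0.222 and 0.192 in the MHFD libraries and 0.0887, 0.0988 and 0.0897 in the MND libraries, a log2 difference of 0.99. Fos was higher in every MHFD library relative to each of the other 4 genes. Relative to Junb the gap was narrow, with 0.669, 0.792 and 0.488 in the MHFD libraries and 0.368, 0.438 and 0.468 in the MND libraries. Relative to 37.0% of all tested genes Fos showed the same separation. Junb relative to Nr4a1 was also separated, with 0.614, 0.573 and 0.608 in the MHFD libraries and 0.512, 0.523 and 0.401 in the MND libraries, as were 2.65% of tested genes taken relative to Nr4a1. In all, 7 of the 10 ratios had no overlap. Among them 4 had Fos as numerator and 3 were over Arc, with Fos to Arc in both. Numerators were taken in the order Fos, Junb, Nr4a1, Egr1, Arc, the order of their log2 fold changes from highest to lowest. The direction of the ratios therefore follows from the group values given above and is no further result. The share over all pairs of tested genes was not computed. Each of these 7 had an exact permutation p, two-sided, of 0.1, the smallest possible with 3 animals against 3. Their adjusted p was 0.143 over the 10 ratios. No ratio could have passed, whatever its values, so this test cannot tell whether a ratio differs between the groups. The adjustment also does not cover the choice of the ratios after the values had been seen. The ratios share genes and are not independent.

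**Figure D5:**
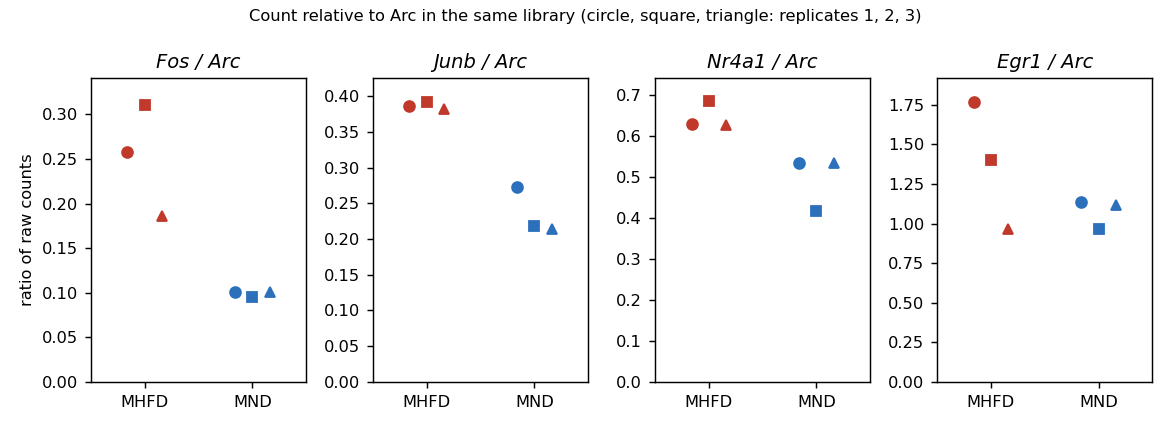
Raw count of Fos, Junb, Nr4a1 and Egr1 divided by the raw count of Arc in the same library, 1 point per library; each panel has its own axis from 0. The MHFD points lie above all MND points for Fos, Junb and Nr4a1 and overlap them for Egr1.

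Other genes were ranked by the correlation of their log2 CPM with the mean of the 5 standardized profiles over the 6 libraries, as a description. Of the 14493 other tested genes whose mean reached 1 CPM, 0.580% had an r of at least 0.9. The most alike were ENSRNOG00000040279 and ENSRNOG00000016748, each with an r of 0.99. ENSRNOG00000016748 had 27.2, 30.9 and 28.5 CPM in the MHFD libraries and 25.9, 26.4 and 31.6 CPM in the MND libraries. Its libraries had the same order as in the mean profile of the 5 genes, with a much smaller span than those genes. The most opposite were ENSRNOG00000059799 and ENSRNOG00000005811, each with an r of -0.99. ENSRNOG00000005811 had 241, 86.3 and 175 CPM in the MHFD libraries and 364, 330 and 78.0 CPM in the MND libraries. Within each group ENSRNOG00000005811 was lowest in the library where the 5 genes were highest of that group. The library orders of both genes go with their choice by r and are no further result.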

How the data were processed

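Brain RNA of 3 MHFD and 3 MND animals was sequenced by a service company. The authors deposited whole counts per gene, without normalization. In each library genes with 4 counts were 2.19 to 2.63 times as frequent as the mean of those with 3 and 5, so the counts need not be single fragments, and the fit was repeated on the counts divided by 4. As to upstream steps, the submitters' processing notes name Bowtie and mm10, although all identifiers are of the rat, and the counting program and annotation release are not given in the sources used here. Groups and replicate numbers were taken from the sample titles. edgeR 4.0.16 in R 4.3.3 was used for the tests: the filter filterByExpr (count 10, total 15), TMM, and the quasi-likelihood test on group alone, with Benjamini-Hochberg adjustment over 16776 genes. CPM uses TMM-scaled library sizes; log2 CPM uses a prior count of 2. Standard errors are the log2 fold change over the square root of F. The tested genes held at least 99.96% of each library's counts. The lowest chi-square per gene between libraries of a group was 31.1, so no 2 libraries of the same group were copies; libraries of different groups were not compared in this way. The program was tested on simulated counts. Correlations and ratios were tested by exact permutation in Python with scipy 1.17.1. The members and lists were chosen with earlier results of these data known. The members, the most alike genes (2 highest and 2 lowest r) and the tests followed fixed rules. The ratios and the count of genes highest in MHFD replicate 2 and MND replicate 3 did not. Symbols are those the member list gives: 0 of the identifiers matched the mouse reference, so the planned lists of other activity genes, upstream regulators and cell type markers were not used here. Alternatives included DESeq2 1.42.0 and limma-voom (limma 3.58.1).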

Additional observations from a re-analysis of the deposited data

How the results depend on the processing

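No alternative gave any of the 5 genes an adjusted p under 0.05. Over 16 alternatives Fos had log2 fold changes from 0.60 to 1.29, Junb from 0.20 to 0.59 and Arc from -0.63 to -0.08, without a change of sign. The adjusted p ran from 0.169 to 0.951 for Fos, from 0.293 to 0.978 for Junb and from 0.631 to 0.951 for Arc. Nr4a1 changed sign, to 0.0227 with limma-voom, 0.0231 with the replicate block, 0.09 without MHFD replicate 1 and 0.39 without MND replicate 3. Egr1 changed sign, to 0.10 without MHFD replicate 3 and 0.30 without MND replicate 3. With each library left out, Egr1 ran from -0.27 to 0.30 and Nr4a1 from -0.22 to 0.39. At an unadjusted p under 0.05, Fos was lost without MHFD replicate 2, without MND replicate 1 and without MND replicate 2. Arc passed without MND replicate 1, where 875 of the 17126 genes tested did. Fos and Junb passed without MND replicate 3, where 1755 of the 17135 genes tested did.

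The median correlation of the pairs was 0.87 with group means subtracted and ran from 0.47 without MND replicate 3 to 0.76 without MHFD replicate 3. The number of genes at an adjusted p under 0.05, 1 in the quasi-likelihood test, was 198 with DESeq2's Wald test, 98 with the likelihood-ratio test, and 0 with limma-voom, with at least 10 counts in every library, with the counts divided by 4 and with the replicate block. With each library left out it ran from 0 to 28, and the number at an unadjusted p under 0.05 from 818 to 2904, against 1456. The cause was not tested.

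The replicate block gave 1078 genes at an unadjusted p under 0.05. No source ties libraries of the same number to each other, and their deviations correlated at -0.0866, 0.00108 and -0.144 over genes, and 0 of the 6 libraries correlated best with its own number. Leaving out libraries for the ratios, and MND replicate 3 for the correlations with group means subtracted (median 0.73), was chosen after seeing the data. The lowest count of the 5 genes in a library was 874 (Fos).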
